A study of Homo sapiens with 6 samples.

Results

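The genes described here were 10 regulators of mitogen-activated protein (MAP) kinase signalling, most of them negative regulators of the extracellular signal-regulated kinase (ERK) pathway, 6 dual-specificity phosphatases (DUSP1, DUSP2, DUSP4, DUSP5, DUSP6 and DUSP10), 2 Sprouty genes (SPRY1 and SPRY2) and 2 Sprouty-related genes (SPRED1 and SPRED2). They were taken by symbol from a count table of 36601 genes, and each symbol had 1 row. RNA had been sequenced from NK92 cells, a human natural killer (NK) cell lymphoma line that depends on IL-2, in stable lines that carried a control hairpin (shCtrl) or a hairpin directed at the lncRNA miR155HG (shmiR155HG), the host transcript of miR-155. Each group had 3 libraries, and all 6 were made 12 h after addition of IL-2 (1000 U/mL) together with IL-12 (10 ng/mL), so no unstimulated cells enter these comparisons. The labels do not say whether the replicates were separate transductions or cultures, so the p-values measure only the spread between these libraries, which may be technical.

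ERK is switched on when RAS activates the RAF, MEK and ERK kinases in turn, and active ERK switches on transcription of genes that then restrain the pathway. The dual-specificity phosphatases remove phosphate from the activation loop of ERK or of the related kinases p38 and JNK, whereas Sprouty and SPRED proteins act upstream, near RAS and RAF. In lymphocytes several of these genes are known as early responses to antigen receptors and cytokines. The mRNAs of some, such as DUSP6, are often used as a readout of recent ERK signalling. A transcript level does not, however, measure the activity of the kinase.

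The totals were 33454786 to 39157264 counts per library, and 12263 genes passed the filter of more than 1 CPM, a count scaled to a library of 1000000, in at least 2 libraries. MIR155HG, the target of the shRNA, had 73, 67 and 62 counts in the shCtrl libraries and 28, 19 and 10 in the shmiR155HG libraries (log2 fold change −1.78, SE 0.43, adjusted p = 0.0045, edgeR quasi-likelihood test). Of 13 NK cell markers, 12 were detected above the filter and CD7 was at or near 0 (0 to 32 counts). Levels of the 12 differed between the groups in both directions. By log2 fold change the largest fall was in GZMB (1195 CPM in shCtrl, 543 in shmiR155HG) and the largest rise in IL2RB (1006 and 1270 CPM). Of the T cell markers, CD3E and TRAC were expressed (330.5 against 335.3 CPM and 72.4 against 72.4 CPM, shCtrl against shmiR155HG), while CD3D had 9 to 35 counts and CD3G, CD4, CD8A and CD5 at most 3 in any library. PAX5, a B cell factor, stood at 244 CPM in shCtrl and 342 in shmiR155HG, while the B cell markers MS4A1 and CD79A had 0 to 5 and 9 to 43 counts. Of the monocyte, erythroid and epithelial markers, CSF1R had 100 to 218 counts, and the other 8 had at most 23.

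The mature miRNA and the promoters of the genes with the largest fold changes are shown first, the miRNA because the shRNA targets its host transcript and the promoters so that their motifs can be read. The first is the mature strand made from the miR155HG transcript (chr21:25573983-25574006, plus strand, GRCh38.p14, RefSeq), with bases 2 to 8, the seed, in capitals. The others are the RefSeq promoter windows (GRCh38.p14, from 250 bases before the gene start to 50 after it) of DUSP2 (chr2:96145391-96145690, minus strand) and DUSP1 (chr5:172771146-172771445, minus strand), the members with the largest fold changes, with the matches to searched motifs in capitals.
hsa-miR-155-5p: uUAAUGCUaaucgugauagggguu
DUSP2 promoter: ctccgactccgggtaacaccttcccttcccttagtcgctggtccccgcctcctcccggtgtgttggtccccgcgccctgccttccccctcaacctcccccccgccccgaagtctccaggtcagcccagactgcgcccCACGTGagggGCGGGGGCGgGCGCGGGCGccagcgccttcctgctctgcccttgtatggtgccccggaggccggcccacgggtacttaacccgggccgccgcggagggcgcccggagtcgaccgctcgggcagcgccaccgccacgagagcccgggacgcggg
DUSP1 promoter: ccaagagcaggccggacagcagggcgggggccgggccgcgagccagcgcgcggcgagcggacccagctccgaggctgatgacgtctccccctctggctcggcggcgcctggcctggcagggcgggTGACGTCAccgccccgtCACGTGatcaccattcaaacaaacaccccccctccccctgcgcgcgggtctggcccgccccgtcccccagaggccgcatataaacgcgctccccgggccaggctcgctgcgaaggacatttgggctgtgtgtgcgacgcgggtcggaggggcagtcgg

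The window of DUSP2 has 75.0% G and C. It holds the E-box CACGTG, whose first base lies at −113 from the gene start, and 2 adjacent matches to GCGNGGGCG, the pattern bound by EGR factors, at −103 and −93. The window of DUSP1 holds the cyclic AMP response element TGACGTCA at −125 and the E-box at −108. Both strands were searched for 5 patterns, the other 2 being the STAT pattern TTCNNNGAA and the AP-1 pattern TGANTCA, and no match overlapped another in these windows. Among 35116 promoter windows of the same length, CACGTG was found in 7.26%, TGACGTCA in 1.85%, TTCNNNGAA in 7.66%, TGANTCA in 7.71% and GCGNGGGCG in 9.43%. 2 or more EGR matches occurred in 1.59% of all windows and in 7.01% of the 7119 windows with at least 70% G and C, the class to which the DUSP2 window belongs. A match is a description of the letters and not evidence of binding. The table held 13 windows for 8 of the 10 members, and DUSP4 and DUSP5 had none. In the other members' windows, the second SPRY1 start had a STAT match at −188 and an EGR match at −28, the first SPRY2 start had EGR matches at −134 and −41, and the second SPRED2 start had AP-1 matches at −6 and 35.

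Of the 10 genes, DUSP2 rose in shmiR155HG cells and SPRED2 fell, with the call of SPRED2 depending on the setting. 6 were measured but not called, and DUSP4 and SPRY2 were too low to be tested. Across all genes tested, 7.26% were called higher and 8.02% lower, so 1 higher and 1 lower among 8 tested members is read against those shares. The median log2 fold change of the 8 was −0.094 and the median size 0.20, beside 0.00097 and 0.12 over all genes tested. The libraries of the groups did not overlap for 4 of the 8 (DUSP2, SPRY1, SPRED1 and SPRED2), as was so for 30.8% of all genes tested.

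**Figure D1:**
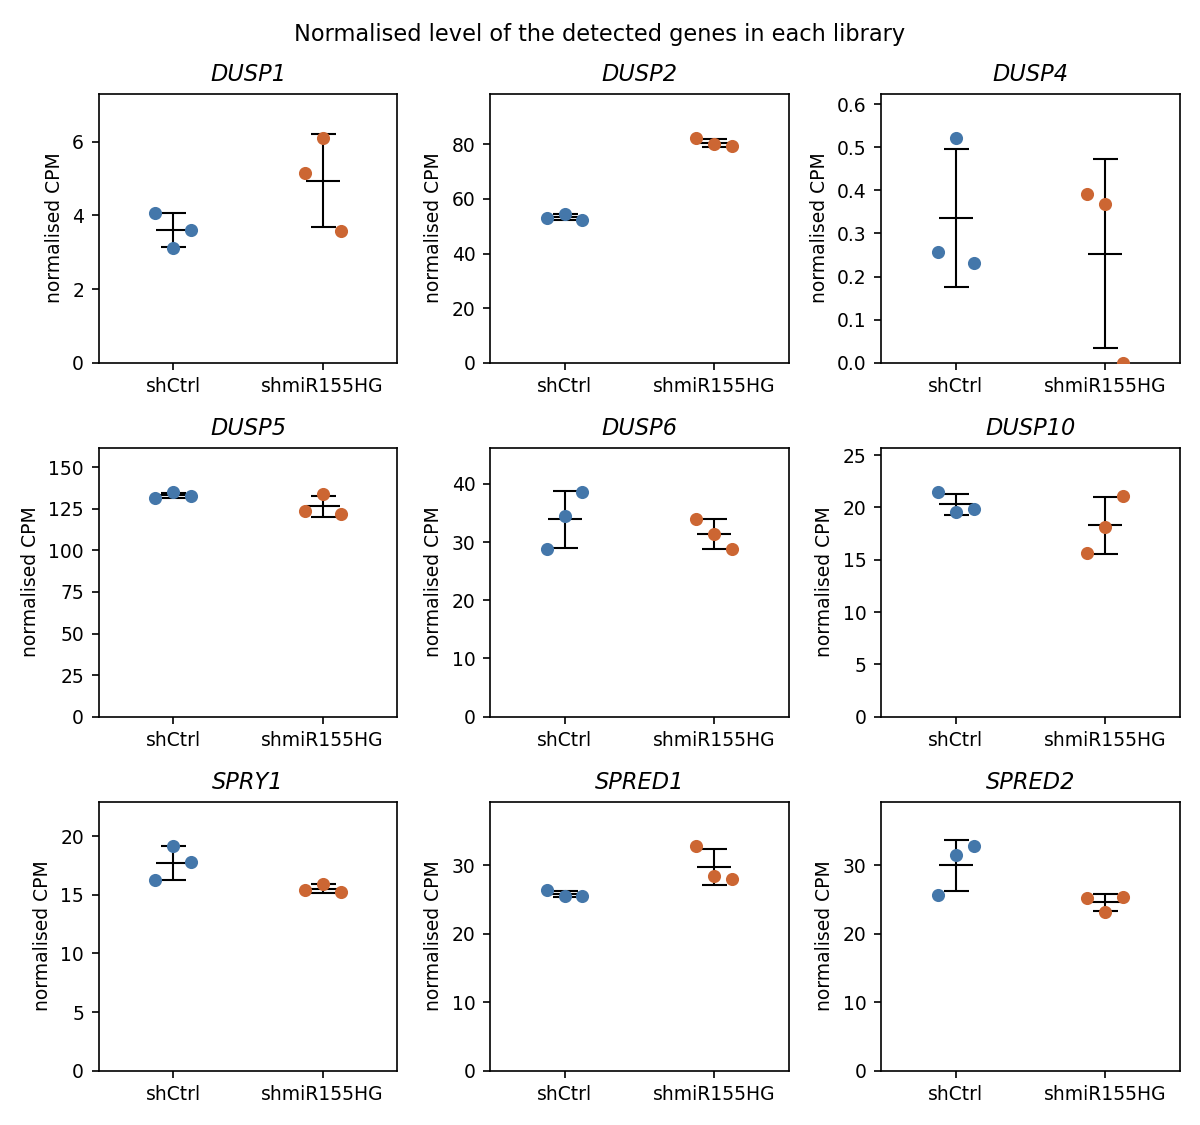
Normalised CPM of the 9 members with any count, with 1 point per library (blue shCtrl, orange shmiR155HG), the longer horizontal line at the mean and bars of 1 SD (n = 3 libraries). The DUSP2 libraries of shmiR155HG lie between 79.3 and 82.2 CPM and those of shCtrl between 52.4 and 54.5 CPM, while the groups of DUSP1, DUSP4, DUSP5, DUSP6 and DUSP10 overlap.

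DUSP2, also known as PAC-1, is a nuclear phosphatase found mainly in blood cells, and it gave the clearest difference of the 10. The gene lies on chromosome 2 (chr2:96143169-96145440, minus strand, hg38), with 4 exons, a transcript of 1685 nt and a protein of 314 residues. Normalised DUSP2 levels were 52.9, 54.5 and 52.4 CPM in the shCtrl libraries and 82.2, 80.2 and 79.3 CPM in the shmiR155HG libraries. Every shmiR155HG library was above every shCtrl library, and the gap between the groups was wider than the spread within either (SD 1.11 and 1.49, n = 3). The mean rose from 53.3 to 80.6 CPM, a fold change of 1.51 (95% interval 1.39 to 1.65). On the log2 scale DUSP2 rose by 0.60 (SE 0.059, adjusted p = 2.68e-08, edgeR quasi-likelihood test). An exact permutation test over the 20 splits of 3 against 3 gave the smallest p it can give, 0.1. A larger log2 fold change in size was seen in 5.09% of the 12263 genes tested. The value stayed between 0.58 and 0.62 when each library was left out in turn, and the call held in all 17 alternative settings. DUSP2 is rich in G and C (63.9% of its transcript, a share lower in 94.7% of genes tested), and the median log2 fold change over genes with at least 60% G and C was 0.079, against −0.054 for genes under 40%. After a correction for GC content per library, DUSP2 stood at 0.52 and was still called. In bulk libraries, more cells that express DUSP2 and more DUSP2 mRNA per cell cannot be told apart.

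Of the other nuclear phosphatases, DUSP1 and DUSP5 were tested and not called. At an unadjusted p under 0.05 (edgeR) the 8 members tested gave 2 higher (DUSP2 and SPRED1) and 1 lower (SPRED2). At that threshold 1617 of all 12263 genes tested were higher and 1726 lower, and the member counts are read against those. DUSP5 acts mainly on ERK, is known to be induced by IL-2 in T cells and was the most abundant member per kilobase of transcript. Its levels were 131.6, 134.9 and 133.0 CPM in shCtrl and 123.6, 133.9 and 121.7 CPM in shmiR155HG. The second shmiR155HG library lay within the shCtrl range and the others lay below it. Its log2 fold change of −0.075 (SE 0.047, 95% interval −0.17 to 0.021) was not called (adjusted p = 0.319, edgeR), and the interval of the fold itself ran from 0.889 to 1.02. Leaving out shmiR155HG replicate 2 brought DUSP5 to −0.12, and leaving out replicate 3 of that group to −0.046.

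DUSP1, also known as MKP-1, is a nuclear phosphatase of ERK, p38 and JNK and a classic stress-induced gene. Its counts were 158, 114 and 141 in shCtrl and 198, 232 and 120 in shmiR155HG, or 4.06, 3.13 and 3.62 CPM against 5.16, 6.10 and 3.59 CPM. The first and second shmiR155HG libraries were above all shCtrl libraries, and the third lay inside their range. The estimate of 0.46 on the log2 scale had a wide error (SE 0.24, 95% interval −0.024 to 0.94) and was not called (adjusted p = 0.211, edgeR). It ran from 0.28 (without shmiR155HG replicate 2) to 0.64 as single libraries were left out, and rests on 413 counts in shCtrl and 550 in shmiR155HG. An antisense lncRNA that overlaps DUSP1, AC022217.3, had 0 to 8 counts.

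DUSP4, also known as MKP-2, is a nuclear phosphatase on chromosome 8 (chr8:29333064-29350684, minus strand). It had 10, 19 and 9 counts in shCtrl and 15, 14 and 0 in shmiR155HG, under the filter. With 38 against 29 counts in all, no difference was detectable at this depth.

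DUSP6, also known as MKP-3, is the cytoplasmic phosphatase specific for ERK and a standard feedback transcript of the pathway. It was measured at 28.8, 34.4 and 38.5 CPM in shCtrl and 34.0, 31.3 and 28.7 CPM in shmiR155HG. The shmiR155HG libraries of DUSP6 lay in or just below the shCtrl range. It differed by −0.11 on the log2 scale (SE 0.095, 95% interval −0.31 to 0.082) and was not called (adjusted p = 0.486, edgeR). With single libraries left out it ran from −0.22 (without shCtrl replicate 1) to −0.0087 (without shCtrl replicate 3). The interval of DUSP6 lies wholly below that of DUSP2 (0.48 to 0.72). An antisense lncRNA, AC024909.1, overlaps DUSP6 and had 90, 77 and 177 counts in shCtrl and 160, 239 and 158 in shmiR155HG (log2 fold change 0.76, SE 0.27, adjusted p = 0.059, edgeR). Whether the counting used the strand is not given in the sources used here, so reads of the pair may have been split between them.

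DUSP10, also known as MKP-5, acts on p38 and JNK rather than on ERK. It stood at 21.4, 19.6 and 19.8 CPM in shCtrl and 15.7, 18.1 and 21.1 CPM in shmiR155HG. The third shmiR155HG library fell inside the shCtrl range, and the first and second lay below it. Its difference of −0.15 on the log2 scale (SE 0.11, 95% interval −0.38 to 0.083) was not called (adjusted p = 0.428, edgeR). Leaving out shmiR155HG replicate 1 brought DUSP10 to −0.051, and leaving out replicate 3 of that group to −0.26.

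**Figure D2:**
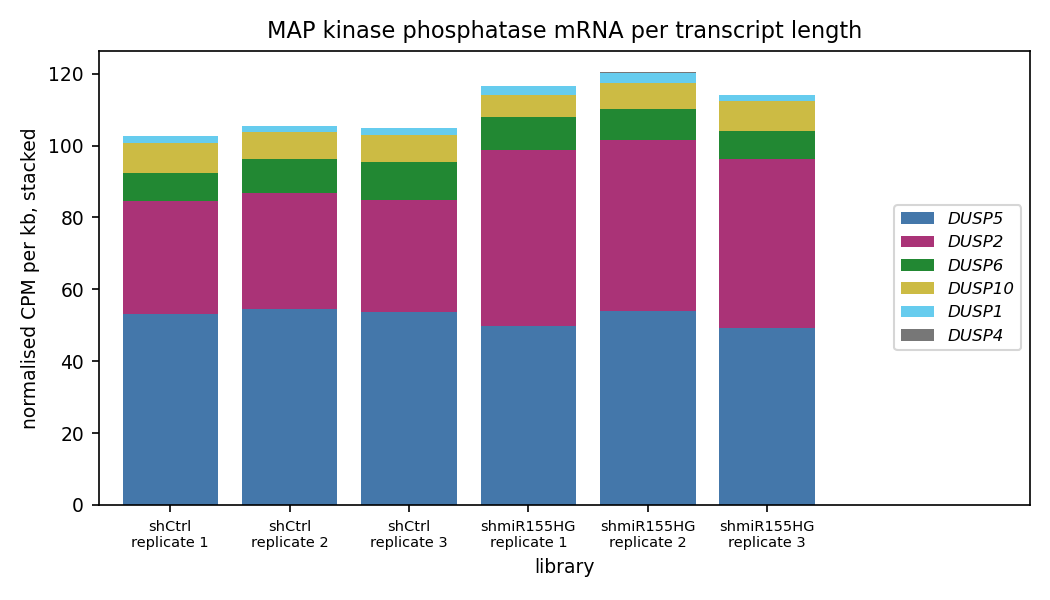
Normalised CPM per kilobase of canonical transcript of the 6 dual-specificity phosphatases, stacked for each library, with bar height as their sum. The sum was 102.8 to 105.5 in shCtrl and 114.0 to 120.4 in shmiR155HG, and the purple DUSP2 section is taller in every shmiR155HG library than in any shCtrl library.

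Levels can be compared between genes only per length of transcript, so they were divided by the length of each gene's canonical transcript. On that scale the order in shCtrl was DUSP5 (53.8 CPM per kb), DUSP2 (31.6), DUSP6 (9.35), DUSP10 (7.84), SPRY1 (6.82), SPRED2 (6.64), SPRED1 (3.55), DUSP1 (1.79), DUSP4 (0.061) and SPRY2 (0). The libraries of DUSP6 and DUSP10 overlapped, as did those of SPRY1 and SPRED2, and no other neighbours in that order did. In shmiR155HG the order was unchanged, but DUSP2 (47.8 CPM per kb) had moved close to DUSP5 (51.0), although the highest DUSP2 library (48.8) stayed below the lowest DUSP5 library (49.1). There the overlapping neighbours were DUSP6 with DUSP10, DUSP10 with SPRY1 and DUSP4 with SPRY2. Of the summed level of the 6 phosphatases per kb, DUSP2 made up 30.5%, 30.7% and 29.6% in the shCtrl libraries and 41.8%, 39.5% and 41.3% in the shmiR155HG libraries. The share of DUSP5 was 51.7%, 51.6% and 51.2% in shCtrl and 42.7%, 44.9% and 43.1% in shmiR155HG. As parts of the same sum, the shares are tied, and a rise in DUSP2 alone lowers that of DUSP5. DUSP5 itself, at 53.8 CPM per kb in shCtrl and 51.0 in shmiR155HG, was not called. These shares are of mRNA and say nothing of protein or phosphatase activity.

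Ratios between members within a library do not depend on library scaling, and the pairs given here were chosen after their values were seen. The ratio of DUSP2 to DUSP5 in CPM was 0.402, 0.404 and 0.394 in shCtrl and 0.665, 0.599 and 0.652 in shmiR155HG, 1.60 times as high by geometric means. The ratio of DUSP2 to DUSP6 was 1.84, 1.58 and 1.36 in shCtrl and 2.42, 2.56 and 2.76 in shmiR155HG, 1.63 times as high. Since the pairs were chosen for their values, the ratios are a description with no test.

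The Sprouty genes were represented by SPRY1 alone. SPRY1 is a membrane-associated adaptor that blocks the route from receptor tyrosine kinases to RAS, and its gene lies on chromosome 4 (chr4:123396795-123403760, plus strand, 3 exons). It measured 16.3, 19.1 and 17.8 CPM in shCtrl and 15.4, 15.9 and 15.2 CPM in shmiR155HG. Every shmiR155HG library was below every shCtrl library, but the highest of them (15.9 CPM) was only just below the lowest shCtrl library (16.3 CPM). That gap was smaller than the spread within shCtrl (SD 1.43). The log2 fold change of −0.19 (SE 0.11, 95% interval −0.42 to 0.042) was not called (adjusted p = 0.293, edgeR). SPRY2, the relative that also binds the ubiquitin ligase CBL, had 0 counts in all 6 libraries. A count of 0 allows up to 3 counts, or 0.077 to 0.090 CPM per library, and this limit covers counting error only.

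The SPRED proteins carry neurofibromin, the RAS-inactivating product of NF1, to the plasma membrane. SPRED2 was called lower, and SPRED1 was not called. SPRED2 (chr2:65310851-65432637, minus strand, 6 exons, 418 residues) was at 25.7, 31.4 and 32.8 CPM in shCtrl and 25.2, 23.2 and 25.4 CPM in shmiR155HG. All shmiR155HG libraries were below all shCtrl libraries, but the first shCtrl library was only just above the highest of them. SPRED2 fell to 0.820 of its shCtrl level (95% interval 0.715 to 0.940), which is −0.29 on the log2 scale (SE 0.096, adjusted p = 0.042, edgeR). This call was lost without shCtrl replicate 2 (−0.25, adjusted p = 0.167), shCtrl replicate 3 (−0.22, 0.189), shmiR155HG replicate 1 (−0.30, 0.080), shmiR155HG replicate 2 (−0.25, 0.172) or shmiR155HG replicate 3 (−0.31, 0.078), and also with limma-voom (−0.28, 0.072) or the filterByExpr filter (−0.29, 0.056), although the direction held in every setting run. A lncRNA on the same strand, AC012370.1, lies within SPRED2 and had 0 to 17 counts.

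SPRED1 (chr15:38252836-38357249, plus strand, 7 exons, 444 residues) was at 26.3, 25.5 and 25.5 CPM in shCtrl and 32.8, 28.4 and 27.99 CPM in shmiR155HG. The groups did not overlap, and the first shmiR155HG library stood above the others. SPRED1 differed by 0.21 on the log2 scale (SE 0.090, 95% interval 0.021 to 0.39), which did not pass the adjustment over all genes (adjusted p = 0.131, edgeR) and stood at 0.13 without shmiR155HG replicate 1. SPRED1 is poor in G and C (36.3% of its transcript, a share lower in 3.72% of genes tested), and after the correction for GC content, added after seeing the data, its value was 0.27 and was called (adjusted p = 0.044). The ratio of SPRED1 to SPRED2 was 1.02, 0.812 and 0.778 in shCtrl and 1.30, 1.22 and 1.10 in shmiR155HG, 1.40 times as high by geometric means, a pair also chosen after the values were seen and given with no test.

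**Figure D3:**
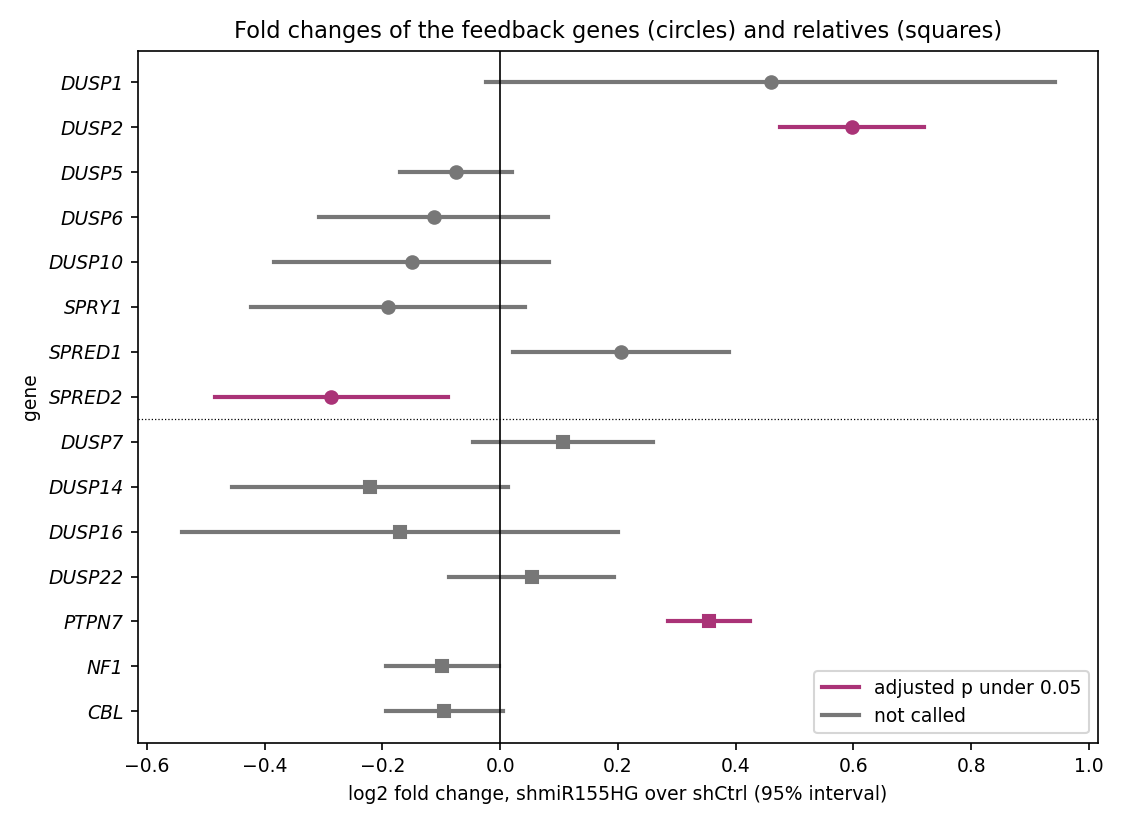
Log2 fold change of shmiR155HG over shCtrl with its 95% interval for the 8 members tested (circles, above the dotted line) and for tested relatives (squares), purple where the adjusted p was under 0.05; PTPRR and SPRED3, whose intervals are much wider, are left out. DUSP2 at 0.60 and PTPN7 at 0.36 lie to the right of 0 with intervals clear of it, SPRED2 at −0.29 lies to the left, and the intervals of DUSP1, DUSP5, DUSP6, DUSP10 and SPRY1 cross 0.

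The 3′UTRs of the members were searched because the shRNA target is the precursor of miR-155. A match to the seed of miR-155-5p, AGCATTA, was present in 1 of 10 members (12.5% of the 8 tested), beside 11.9% of 10763 tested genes with a 3′UTR. The match lies in SPRED1 (chr15:38352928-38352957, plus strand, hg38), starting at base 1276 of its 3′UTR of 5585 bases, and is printed with its flanks and with the match in capitals.
SPRED1 site: tttcttttgcagAGCATTAtattactggat
The level of mature miR-155 was not measured in these poly(A) libraries. DUSP2 has no such match in its 3′UTR of 654 bases, and neither has SPRED2 in its 2650 bases. The AU-rich pentamer ATTTA, known from short-lived mRNAs, was present in 9 of 10 members and in 87.5% of the 8 tested. It was present in 71.9% of the 10763 tested genes with a 3′UTR. Its median was 3.18 per kb of 3′UTR over the members tested and 1.67 over those 10763 genes. DUSP2 holds 3 copies, SPRED1 24, SPRED2 5, DUSP1 4 and DUSP5 none (0). The longer element TTATTTATT occurred in DUSP1 and in DUSP4, which was not tested. That is 12.5% of the members tested (1 of 8), beside 9.33% of tested genes with a 3′UTR.

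Of 11 other phosphatases of the MAP kinases, 6 were tested, 1 was higher and 0 were lower (0 also at an unadjusted p under 0.05, edgeR), with a median log2 fold change of −0.059. Among all genes tested, 7.26% were higher and 8.02% lower. PTPN7, a tyrosine phosphatase of ERK and p38 in haematopoietic cells, was the one that rose, from 13043, 12803 and 13732 counts to 17188, 16647 and 14824 counts. In CPM its libraries were 335.3, 351.0 and 352.4 in shCtrl and 447.9, 437.4 and 443.3 in shmiR155HG, with no overlap. PTPN7 rose by 0.36 on the log2 scale (SE 0.034, adjusted p = 1.23e-08, edgeR). DUSP7 (0.11), DUSP14 (−0.22), DUSP16 (−0.17), DUSP22 (0.053) and PTPRR (−0.45, SE 0.43) were not called. DUSP3, DUSP8, DUSP9, DUSP19 and PTPN5 were under the filter.

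Of 5 relatives and partners of the Sprouty and SPRED proteins, 3 were tested and none (0) was called by edgeR's quasi-likelihood test. At an unadjusted p under 0.05 (edgeR) 1 was lower and 0 were higher. Over all 12263 genes tested, 7.26% were called higher and 8.02% lower, and 1617 were higher and 1726 lower at the unadjusted threshold. SPRED3 was called higher by limma-voom and by the exact test. NF1 stood at −0.098 on the log2 scale (SE 0.047, adjusted p = 0.172, edgeR) and CBL at −0.095 (SE 0.049, adjusted p = 0.209, edgeR). SPRED3 had 47, 205 and 58 counts in shCtrl and 188, 285 and 197 in shmiR155HG, so the second shCtrl library lay within the shmiR155HG range. SPRED3 differed by 1.14 on the log2 scale (SE 0.67, adjusted p = 0.372, edgeR), and without shCtrl replicate 2 it was 2.17 (adjusted p = 3.25e-05). SPRY4 had 0 counts in every library, and SPRY3 had 4 to 18.

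**Figure D4:**
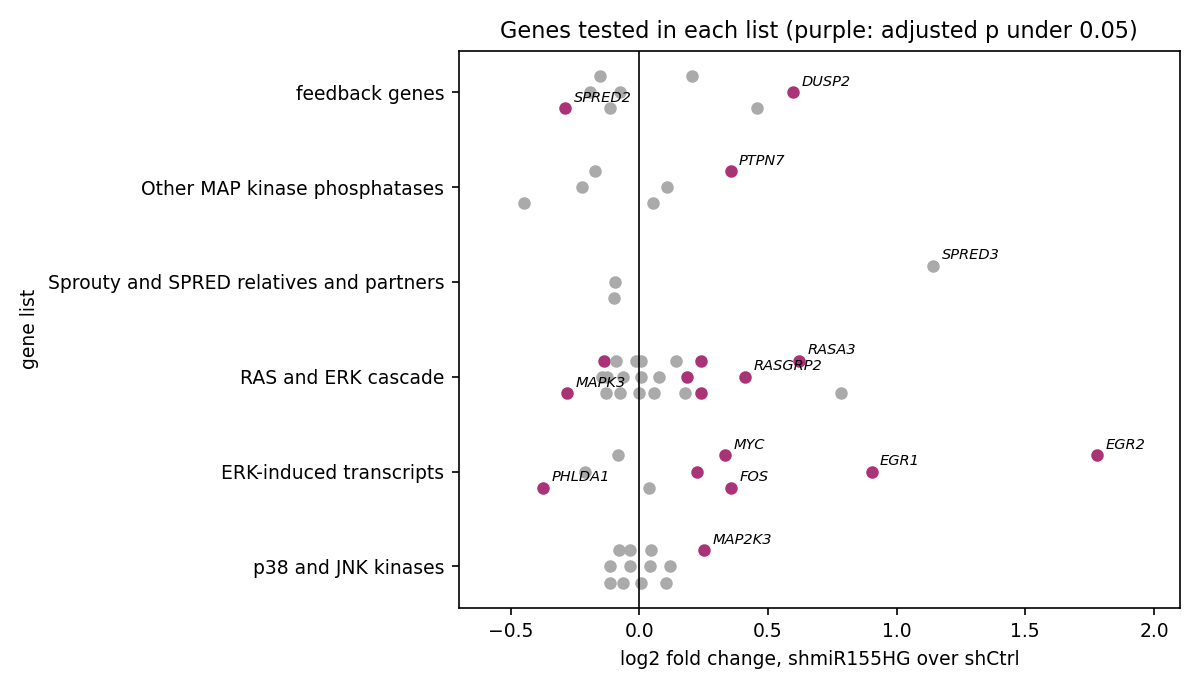
Log2 fold change of shmiR155HG over shCtrl for each gene tested in the feedback set and 5 related lists, purple where the adjusted p was under 0.05. Genes induced by ERK extend furthest to the right, up to EGR2 at 1.78, while DUSP2 at 0.60 is the highest of the feedback genes.

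The kinases that these regulators act on were read from the same libraries. Of 22 genes of the RAS and ERK cascade, all tested, 5 were higher and 2 lower, with a median log2 fold change of 0.0084. The shares over all genes tested were 7.26% higher and 8.02% lower. MAP2K1 (MEK1) stood at 0.0083 (SE 0.046, adjusted p = 0.938, edgeR). MAPK3 (ERK1) fell by 0.28 on the log2 scale (SE 0.089, adjusted p = 0.032, edgeR), a call lost without shCtrl replicate 1 (adjusted p = 0.10), shCtrl replicate 3 (0.094), shmiR155HG replicate 1 (0.125) or shmiR155HG replicate 2 (0.089). MAP2K2 (MEK2) rose by 0.24 (adjusted p = 0.00046, edgeR), or by 0.15 with the GC correction. The other named calls were the RAS GTPase-activating genes RASA3 (0.62, adjusted p = 0.0032, edgeR) and RASA1 (0.24, adjusted p = 0.0088, edgeR) and the RAS exchange factor gene RASGRP2 (0.41, adjusted p = 0.027, edgeR). The RASGRP2 call was lost without shCtrl replicate 1 (adjusted p = 0.054), shCtrl replicate 2 (0.176) or shmiR155HG replicate 3 (0.213) and with the GC correction (0.058), and the RASA1 call without shCtrl replicate 3 (0.051) or shmiR155HG replicate 2 (0.095). RASA1 and MAP2K2 were also not called under the study's thresholds, which ask for a fold over 1.2.

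Of 17 transcripts known to be induced by ERK, 9 were tested, 5 were higher and 1 lower, with a median log2 fold change of 0.23. Over all genes tested, 7.26% were higher and 8.02% lower. EGR2 had 68, 95 and 53 counts in shCtrl and 257, 255 and 207 in shmiR155HG (log2 fold change 1.78, SE 0.25, adjusted p = 7.47e-06, edgeR). EGR1 had 351, 386 and 446 counts in shCtrl and 699, 781 and 646 in shmiR155HG (0.90, SE 0.13, adjusted p = 6.63e-06, edgeR). The groups did not overlap for either of these zinc finger factors. MYC rose by 0.33 (SE 0.037, adjusted p = 1.59e-07, edgeR), and FOS by 0.36 (SE 0.12, adjusted p = 0.034, edgeR). The FOS call was lost without shCtrl replicate 1 (adjusted p = 0.075), shCtrl replicate 2 (0.125), shmiR155HG replicate 2 (0.203) or shmiR155HG replicate 3 (0.051). PHLDA1 fell by 0.37 on the log2 scale (SE 0.052, adjusted p = 1.67e-05, edgeR). ETV5, which like DUSP6 is a common readout of ERK output, stood at −0.21 (SE 0.087, adjusted p = 0.110, edgeR), and its call was gained without shmiR155HG replicate 3 (−0.30, adjusted p = 0.041). CCND1 was under the filter, with 0 to 14 counts per library. Of the 13 p38 and JNK kinase genes, 12 were tested, and 1 was higher, MAP2K3 (0.25, adjusted p = 0.00058, edgeR), and 0 were lower. At an unadjusted p under 0.05 (edgeR) 2 of them were higher and 1 lower, beside 1617 and 1726 of all 12263 genes tested. MAP2K3 was not called under the study's thresholds.

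**Figure D5:**
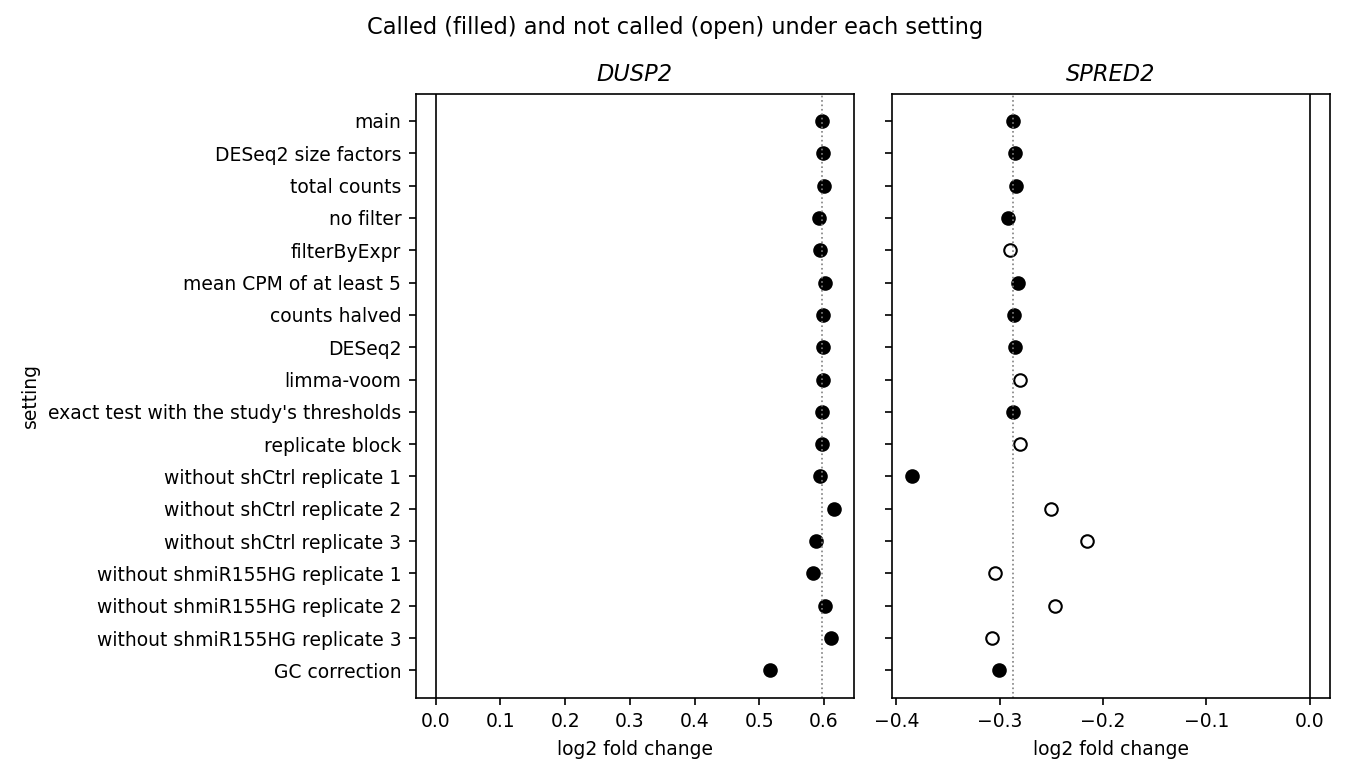
Log2 fold change of DUSP2 (left) and SPRED2 (right) in each setting, filled where the gene was called and open where it was not, with the dotted line at the main value and the solid line at 0. DUSP2 was called in every setting shown, between 0.52 and 0.62, whereas SPRED2 kept its sign but lost its call in 8 of 17 alternatives.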

How the data were processed

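RNA-seq of 6 NK92 libraries, 3 shCtrl and 3 shmiR155HG, gave the data. Per the study's methods, poly(A) RNA was read as pairs of 150 bases, aligned to hg38 with HISAT2 and counted with StringTie on reference transcripts and prepDE.py3. The deposited table holds whole-number counts, 1 column per library, that the authors had not normalized. Tool versions, annotation release and strand use are not given in the sources used here. For shmiR155HG replicates 2 and 3, the treatment field names the target with another number than the title does, and the title was followed.

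Genes with over 1 CPM in at least 2 libraries were tested with edgeR 4.0.16 (R 4.3.3), using TMM scaling, a robust quasi-likelihood fit and Benjamini-Hochberg adjustment over the 12263 genes tested. A gene was called at an adjusted p under 0.05. Adjusted p-values are from this test unless another is named, the SE is that of a log2 fold change, and intervals are at 95%. The exact permutation test used log2 CPM with a pseudocount of 0.5, was two-sided, and can reach 0.1 at the lowest. CPM values are divided by scaled library sizes. The script was tested on simulated data.

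The named genes were all members, every other MAP kinase phosphatase and Sprouty relative, up to 5 called genes per pathway list with the largest changes, 9 core kinases and transcripts, and defining cell type markers, of which 2 genes are not reported here. The members and lists were chosen with earlier results of these data known. Positions, transcripts and 3′UTRs are those of GENCODE v44 (hg38), canonical transcripts. Alternatives covered scaling (DESeq2 1.42.0 size factors, total counts), filters (filterByExpr, a mean CPM of 5 or more, or none), counts divided by 2, DESeq2, limma-voom (limma 3.58.1), edgeR's exact test with the study's thresholds (unadjusted p under 0.01, fold over 1.2), a replicate block and each library left out. A GC correction (loess per library) was added after seeing the data.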

Additional observations from a re-analysis of the deposited data

How the results depend on the processing

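DUSP2 kept its direction and its call in all 17 alternatives (0.52 to 0.62), and DUSP1, DUSP5, DUSP6, DUSP10 and SPRY1 kept their sign and stayed uncalled in every alternative that tested them. The SPRED2 call was lost with filterByExpr (−0.29), limma-voom (−0.28) and a replicate block (−0.28, adjusted p = 0.053), and single-library omissions gave −0.38 to −0.22. Members called lower were then 0 under filterByExpr, limma-voom and the block, and 0 to 1 with a library left out. With the GC correction, SPRED1 was called (0.27), so that 2 members were higher. edgeR's exact test with the study's thresholds, as run here, called 551 genes higher and 466 lower, beside 890 and 984 in the main fit. These are not the study's own counts, which were larger in both directions. Leaving out 1 library gave 580 to 891 higher, lowest without shmiR155HG replicate 2, and 674 to 917 lower. Of the Sprouty and SPRED relatives, 1 was called by limma-voom, by the exact test and with the block, and 0 to 1 with a library left out. The RAS and ERK cascade had 3 calls in the exact test and 4 to 6 with a library left out, and the p38 and JNK kinases 0 in the exact test and 2 with the GC correction. Values near 0 changed sign: DUSP22 (−0.013 to 0.11) and MAP2K1 (−0.016 to 0.043) with a library left out, and MAP2K1 (−0.0071) with the GC correction. The cause of these changes was not tested. Deviations from the group means were close to uncorrelated between libraries of the same replicate number (−0.018, 0.00098 and 0.0035). These correlations over all genes tested cannot show whether a replicate number shares a culture or batch, which the labels do not say. Beside SPRED2, the block ended the call of FOS (0.35, adjusted p = 0.053). Depth limits DUSP4 and SPRY2, and prepDE.py3 scales counts by a read length that is not given here, so halved counts were also fitted and gave the same member calls.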
